A study of Rattus norvegicus with 30 samples.

Results

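The 9 genes described here encode the apolipoproteins of plasma lipoproteins (Apoa1, Apoa2, Apoa4, Apoa5, Apob, Apoc3 and Apoe), the protein that loads lipid onto apolipoprotein B (Mttp) and a lipase of the liver surface (Lipc). All probe sets annotated to one of these symbols alone were taken, which gave 11 of the 31042 probe sets tested, 1 for each gene and a second for Apob and Apoe. The arrays name 14217 genes in this way. Liver RNA (left lobe) of female rats of the Sprague-Dawley strain, 10 weeks old by the labels, was hybridised to Affymetrix rat genome arrays, with 1 array for each of 30 rats. Rats handled for 1 day (10 rats, labelled 24 h) were euthanised on day 2, rats handled for 4 days (10 rats, labelled 96 h) on day 5, and control rats, which were not handled (10 rats, labelled 24 h), on day 2. Handling consisted of weighing, restraint in a Broome restrainer, water by oral gavage each day and repeated bleeding from the tail vein. By the study design, the bleeding was on day 1 in the 1-day group and on day 4 in the 4-day group. Unhandled rats euthanised on day 5 were not part of the study, so 4 days of handling and the later day cannot be told apart. Each value below is a probe set intensity on a linear scale, on which the mean of an array was close to 1, unless it is called a log2 value.

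The liver packs triglyceride and cholesterol ester into very low-density lipoprotein by loading lipid onto apolipoprotein B as it is made, a step that needs the microsomal triglyceride transfer protein encoded by Mttp. High-density lipoprotein is built on apolipoproteins A-I and A-II, which the liver also secretes. Apolipoproteins C-III and A-V act in opposite directions on the clearance of triglyceride in plasma, apolipoprotein E is the ligand by which remnants are taken up, and hepatic lipase trims the lipid of both kinds of particle. In the rat, the liver and the intestine both make apolipoproteins A-IV and B.

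The labelled tissue was checked against marker genes. The 5 hepatocyte genes measured (of 6 listed) lay above the array median on every array, with a summed intensity of 267 to 303 in rats handled for 1 day, 271 to 312 in rats handled for 4 days and 267 to 298 in control rats. Enterocyte markers, the concern for Apoa4 and Apob, summed to 0.793 to 1.58 after 1 day, 0.671 to 1.63 after 4 days and 0.503 to 1.98 in control rats. Of the 4 measured, 2 lay below the array median on all arrays and 1, Fabp2 (mean intensity 0.933), lay above it on all arrays. Kupffer cell markers, the concern for Apoe, summed to 12.0 to 17.7 after 1 day, 10.8 to 14.2 after 4 days and 11.7 to 18.2 in control rats. The ranges of these sums overlapped between the 3 groups in all of these lists. Of the 5 Kupffer cell markers measured, limma called 0. At an unadjusted p under 0.05, 1 was higher after 1 day (Cd163, log2 fold change 0.26) and 2 were lower after 4 days. These were Cd68 (-0.33) and Clec4f (-0.24). Of all probe sets, 9.33% and 11.3% passed that mark. In liver RNA, fewer cells of a type and less RNA in each cell cannot be told apart. Between the 3′ and 5′ Gapdh control probe sets, whose log2 ratio reads RNA integrity, the ratio was 0.66 to 0.83 after 1 day. The ratio was 0.7009 to 0.9634 after 4 days of handling and 0.5498 to 0.7006 in control rats. Each rat handled for 4 days thus lay above each control rat. A fit with this Gapdh ratio as a covariate therefore cannot fully separate it from 4 days of handling. The actin control ratio had a median of 2.81 after 1 day, 2.996 after 4 days and 2.53 in control rats, with overlapping ranges. Control rats 1, 2 and 3 stood apart from the other rats in earlier results of these data, and the log2 fold changes against control that are named below are also given without them.

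RefSeq (build GRCr8) places Apoa1, Apoc3, Apoa4 and Apoa5 next to one another on chromosome 8, in that order between Sik3 and Zpr1. Lipc lies elsewhere on chromosome 8, between Adam10 and Aqp9. Apoe is on chromosome 1 beside Apoc1, Mttp on chromosome 2, Apob on chromosome 6 and Apoa2 on chromosome 13. Promoter sequence was at hand for 4 of the 9 genes, with 7 start sites among them. The 250 bases before the start are shown for the 3 genes whose intensities varied most between rats or had the smallest p after handling, namely Apoa5 (its first start site, chr8:55457621-55457870, plus strand), Lipc (chr8:80516286-80516535, minus strand) and Apoa4 (chr8:55435529-55435778, plus strand). Capitals mark matches, on either strand, to the TATA box (TATAAA), the E-box CACGTG bound by helix-loop-helix factors, the nuclear receptor element AGGTCA and the HNF1 motif (GTTAAT, any base, ATTAA).
Apoa5: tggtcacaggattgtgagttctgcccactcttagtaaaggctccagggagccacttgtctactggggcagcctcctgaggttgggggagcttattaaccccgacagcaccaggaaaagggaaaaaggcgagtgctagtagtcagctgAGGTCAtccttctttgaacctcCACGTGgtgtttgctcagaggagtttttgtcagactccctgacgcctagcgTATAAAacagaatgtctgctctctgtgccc
Lipc: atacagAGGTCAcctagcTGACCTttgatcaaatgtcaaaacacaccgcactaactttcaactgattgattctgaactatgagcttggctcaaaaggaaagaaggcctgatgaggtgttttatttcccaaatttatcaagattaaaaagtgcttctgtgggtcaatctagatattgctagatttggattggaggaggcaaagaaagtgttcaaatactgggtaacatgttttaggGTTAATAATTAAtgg
Apoa4: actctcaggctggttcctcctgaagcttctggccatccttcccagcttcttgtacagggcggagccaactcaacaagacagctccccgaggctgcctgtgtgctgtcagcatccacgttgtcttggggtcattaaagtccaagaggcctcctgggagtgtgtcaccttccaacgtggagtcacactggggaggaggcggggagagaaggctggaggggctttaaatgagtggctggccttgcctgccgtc
The Apoa5 window held a TATA box 30 to 25 bases before the start, an E-box 81 to 76 bases before it and an AGGTCA 103 to 98 bases before it. The Lipc window held an AGGTCA at 244 to 239 and another on the opposite strand at 232 to 227 bases before the start, and the HNF1 motif at 15 to 4 bases. The Apoa4 window held none of these letters. Of 33469 rat promoter windows of 250 bases, 12.9% held TATAAA, 5.59% CACGTG, 14.1% AGGTCA and 0.0448% the HNF1 motif. The E-box reads the same on both strands and the matches do not overlap otherwise. They describe the letters alone.

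None of the 9 genes passed the test for a change after handling. At a Benjamini-Hochberg adjusted p under 0.1 over all probe sets, limma called 0 of the 11 probe sets after 1 day of handling, where it called 0.0902% of all probe sets, and 0 of 11 after 4 days, where it called 0.657%. It called 0 of 11 between 4 days and 1 day, where it called 0% of all probe sets, and 0 of 11 in the F test over the 3 groups, which called 0.306%. At an unadjusted p under 0.05, 2 of 11 passed after 1 day (Mttp and Lipc), 3 of 11 after 4 days (Mttp, Lipc and the dim Apob probe set) and 0 of 11 between the handled groups, against 9.33%, 11.3% and 5% of all probe sets. Without control rats 1, 2 and 3 the counts at that mark were 0 of 11 after 1 day and 0 of 11 after 4 days, against 8.5% and 11.4% of all probe sets. Of the 608 probe sets with a mean intensity of at least 10, 20.2%, 15.6% and 1.48% passed that mark with all rats. The methods' t-test and the exact rank-sum test, adjusted over all probe sets, also called 0 of 11 in each comparison. The median log2 fold change over the brightest probe set of each gene was 0.008 after 1 day and 0.060 after 4 days. Over all probe sets it was -0.003 and 0.002, and over the 608 bright probe sets it was 0.005 and 0.014. The median of the 9 genes without control rats 1, 2 and 3 was -0.02 after 1 day and -0.002 after 4 days, and that of the bright probe sets -0.005 and 0.002. Signs are handled minus control as the labels name the groups. The genes named as changed in the paper were looked up to check these signs. A probe set of 1 symbol was found for 25 of them, and all 25 ran opposite to the published direction, so the direction of each difference below rests on the labels.

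**Figure D1:**
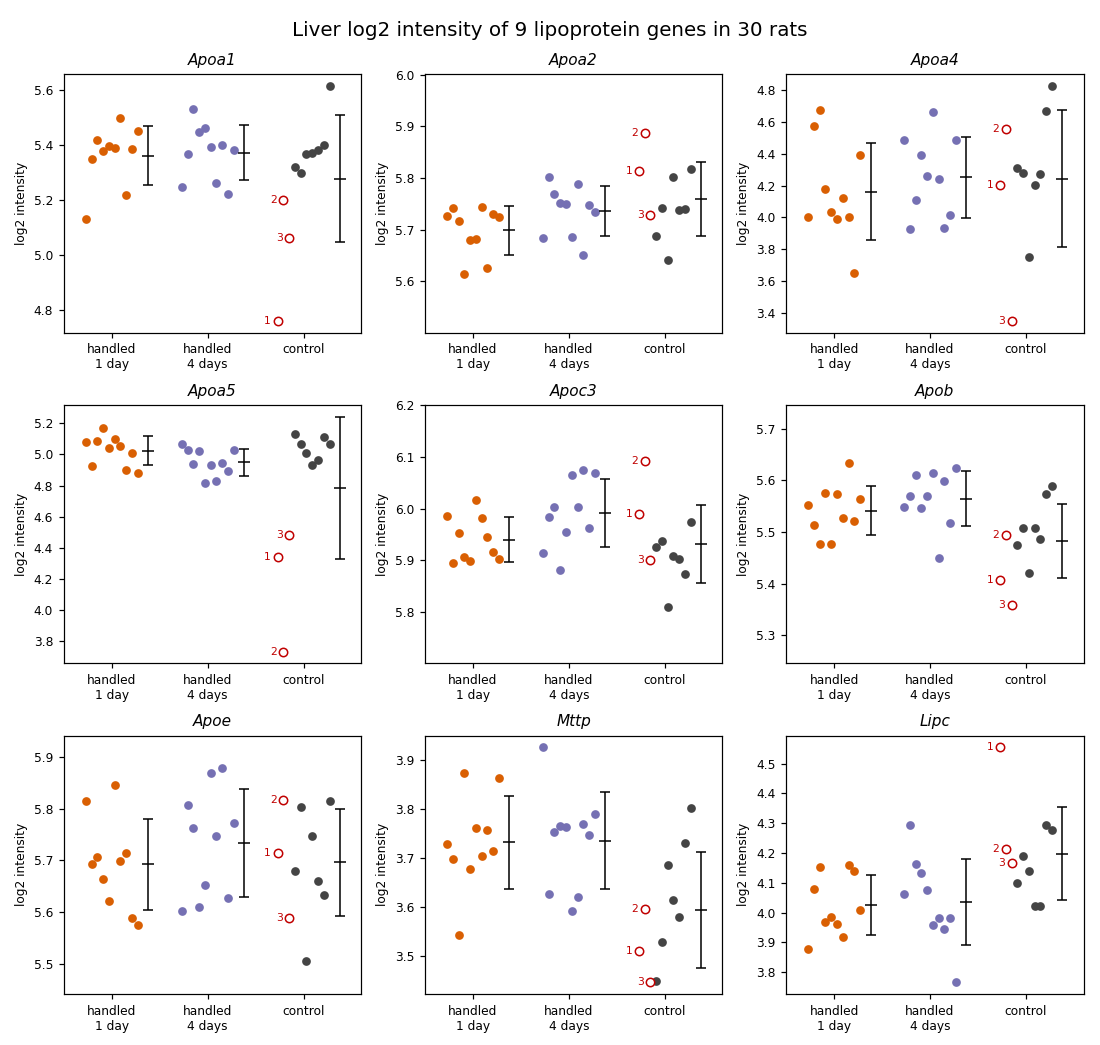
Log2 intensity of the brightest probe set of each of the 9 genes in 30 rats, 1 point per rat, by group, with the mean and SD of each group beside the points. Control rats 1, 2 and 3 are open and numbered, and for Apoa5 they lie below all other rats.

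Apoa1 and Apoa2 encode the main proteins of high-density lipoprotein, and neither passed the test. The intensity of Apoa1 was 35.1 to 45.1 (median 41.8) in rats handled for 1 day, 37.3 to 46.2 (median 41.8) in rats handled for 4 days and 27.1 to 49.0 (median 40.6) in control rats. Control rats 1, 2 and 3 had 27.1, 36.8 and 33.4, and control rats 4 to 10 had 39.3 to 49.0. The handled rats lay inside the range of the control rats, and the 3 numbered control rats lay below the other 7. The log2 fold change of Apoa1 was 0.08 (standard error 0.08) after 1 day and 0.09 after 4 days, with adjusted p-values from limma of 0.769 and 0.680, and without control rats 1, 2 and 3 it was -0.03 and -0.02. Without control rat 1 alone it was 0.03 and 0.04. Apoa2 was among the steadiest of the bright probe sets, with a within-group SD of 0.053 on the log2 scale over the 27 rats without control rats 1, 2 and 3, against a median of 0.097 over the bright probe sets. It ran from 49.0 to 53.6 (median 52.7) after 1 day, from 50.3 to 55.8 (median 53.8) after 4 days and from 49.9 to 59.2 (median 53.5) in control rats, and the groups overlapped. Its log2 fold change was -0.06 after 1 day (95% confidence interval -0.15 to 0.03) and -0.02 after 4 days (-0.11 to 0.06), and without control rats 1, 2 and 3 it was -0.04 and -0.002.

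Apoa5, whose protein speeds the clearance of triglyceride-rich particles, was low in 3 control rats, while the handled rats and the other 7 control rats overlapped. Its intensity was 29.4 to 36.1 (median 33.1) after 1 day of handling, 28.1 to 33.6 (median 30.8) after 4 days and 13.3 to 35.1 (median 31.7) in control rats. Control rats 1, 2 and 3 had 20.2, 13.3 and 22.3, and control rats 4 to 10 had 30.6 to 35.1. The 3 rats lay below each of the other 27, whose lowest value was 28.1. The log2 fold change of Apoa5 was 0.24 after 1 day (95% confidence interval -0.01 to 0.49) and 0.17 after 4 days (-0.09 to 0.42), with adjusted p-values from limma of 0.567 and 0.648. In size these were the largest among the bright probe sets of the 9 genes. Without control rats 1, 2 and 3 the sign turned, to -0.02 (-0.13 to 0.09) and -0.09 (-0.20 to 0.02). Without control rat 2 alone it was 0.12 after 1 day and 0.05 after 4 days.

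Apoc3 encodes an inhibitor of triglyceride clearance, and Apoa4 a protein of chylomicrons and high-density lipoprotein. Apoc3 was steady, at 59.5 to 64.7 (median 61.0) after 1 day, 59.0 to 67.4 (median 63.7) after 4 days and 56.1 to 68.2 (median 60.4) in control rats. After 4 days 8 of 10 rats lay above the control median, and 0 of 10 lay above the highest control rat, rat 2. Set against control rats 4 to 10 alone, whose highest value was 62.9, 6 of 10 lay above all of them and 9 of 10 above their median. For Apoc3 the log2 fold change was 0.01 after 1 day (95% confidence interval -0.08 to 0.10) and 0.06 after 4 days (-0.03 to 0.15). For Apoc3 the values without control rats 1, 2 and 3 were 0.04 and 0.09 (adjusted p = 0.897 and 0.473 by limma). With all control rats, the value of Apoc3 after 4 days was 0.008 under quantile normalization and 0.04 with the Gapdh ratio as a covariate. Apoa4 was the least steady of the 9 genes in its bright probe set, with a within-group SD of 0.305 on the log2 scale over 27 rats, wider than 93.9% of the 608 bright probe sets. Its intensity was 12.5 to 25.5 (median 16.9) after 1 day, 15.2 to 25.3 (median 19.1) after 4 days and 10.2 to 28.4 (median 19.4) in control rats. The control rats spanned all handled rats, with control rat 3 lowest. Apoa4 had a log2 fold change of -0.08 after 1 day (95% confidence interval -0.38 to 0.23) and 0.01 after 4 days (-0.30 to 0.31), the widest intervals among the bright probe sets. Without control rats 1, 2 and 3 it was -0.17 and -0.08.

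Apob and Apoe encode the ligands by which lipoproteins reach their receptors. The bright Apob probe set had 44.6 to 49.6 (median 46.5) after 1 day, 43.7 to 49.3 (median 47.5) after 4 days and 41.1 to 48.2 (median 45.0) in control rats. Above the control median lay 8 of 10 rats after 1 day and 9 of 10 after 4 days, and above the highest control rat 1 and 4. The log2 fold change was 0.06 (standard error 0.04, adjusted p = 0.706 by limma) after 1 day and 0.08 (95% confidence interval -0.01 to 0.17, adjusted p = 0.479) after 4 days. The first 3 control rats had 41.1 to 45.1, and 2 of them lay below all of the other 27 rats. Without these 3 rats the bright Apob values were 0.03 and 0.06, and with the Gapdh ratio as a covariate 0.03 and 0.05. The second Apob probe set was dim, below the array median on 4 arrays, at 0.135 to 0.334 (median 0.211) after 1 day, 0.104 to 0.287 (median 0.251) after 4 days and 0.116 to 0.337 (median 0.161) in control rats. It had the same sign as the bright one, with log2 fold changes of 0.28 and 0.47 (adjusted p = 0.694 and 0.350 by limma), and without control rats 1, 2 and 3, whose values were 0.120, 0.157 and 0.116, these were 0.12 and 0.30. With an offset of 1 added before the log2 step, the bright Apob probe set had the smallest adjusted p of any of the 11 in any setting, 0.137 after 4 days at a log2 fold change of 0.08.

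The bright Apoe probe set had 47.7 to 57.5 (median 51.8) after 1 day, 48.6 to 58.8 (median 54.0) after 4 days and 45.4 to 56.3 (median 51.9) in control rats. The groups overlapped over most of their range. Apoe had a log2 fold change of -0.004 after 1 day (95% confidence interval -0.12 to 0.11) and 0.04 after 4 days (-0.08 to 0.15), against 0.0002 and 0.04 without control rats 1, 2 and 3. The second Apoe probe set lay below the array median on all 30 arrays, at 0.0145 to 0.0462 after 1 day, 0.0149 to 0.0377 after 4 days and 0.0150 to 0.0400 in control rats, and its log2 fold changes of 0.03 and -0.19 had intervals as wide as -0.65 to 0.27. Without the 3 control rats they were 0.17 and -0.05.

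Mttp, the lipid transfer protein of lipoprotein assembly, averaged higher in both handled groups by about the same amount, below the threshold for a call. Its intensity was 11.6 to 14.7 (median 13.2) after 1 day, 12.1 to 15.2 (median 13.5) after 4 days and 10.9 to 14.0 (median 12.0) in control rats. After 1 day 9 of 10 rats, and after 4 days 10 of 10, lay above the control median, and 2 and 1 lay above all control rats. In Mttp the log2 fold change was 0.14 after 1 day (95% confidence interval 0.02 to 0.25, unadjusted p = 0.0219, adjusted p = 0.452) and 0.14 after 4 days (0.02 to 0.26, unadjusted p = 0.0193, adjusted p = 0.321) by limma, a fold of 1.10 in each. Both comparisons share the control rats, of which rats 1, 2 and 3 had 11.4, 12.1 and 10.9 and the others 10.9 to 14.0. Without these 3 rats the values were 0.10 and 0.11, and with the Gapdh ratio as a covariate 0.09 and 0.09, and none of these 4 values had an unadjusted p under 0.05.

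Lipc, which encodes hepatic lipase, averaged lower in both handled groups, also below the threshold. It had 14.7 to 17.9 (median 16.0) after 1 day, 13.6 to 19.6 (median 16.3) after 4 days and 16.2 to 23.5 (median 18.1) in control rats. Below the lowest control rat lay 6 of 10 rats after 1 day and 5 of 10 after 4 days, and above the control median 0 and 1. Above the median of control rats 4 to 10 lay 3 and 2. The log2 fold change of Lipc was -0.17 after 1 day (95% confidence interval -0.31 to -0.03, unadjusted p = 0.0167, adjusted p = 0.422) and -0.16 after 4 days (-0.30 to -0.02, unadjusted p = 0.0245, adjusted p = 0.346) by limma, folds of 0.887 and 0.894. Control rats 1, 2 and 3 had 23.5, 18.6 and 17.9, and control rats 4 to 10 had 16.2 to 19.6. Control rat 1 was the highest of all 30 rats. Without the 3 rats the log2 fold change was -0.12 (-0.26 to 0.02) and -0.11 (-0.25 to 0.03), and with the Gapdh ratio as a covariate -0.19 and -0.18. With that covariate the unadjusted p by limma was 0.0317 after 1 day and 0.0514 after 4 days, and the adjusted p 0.656 and 0.634.

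**Figure D2:**
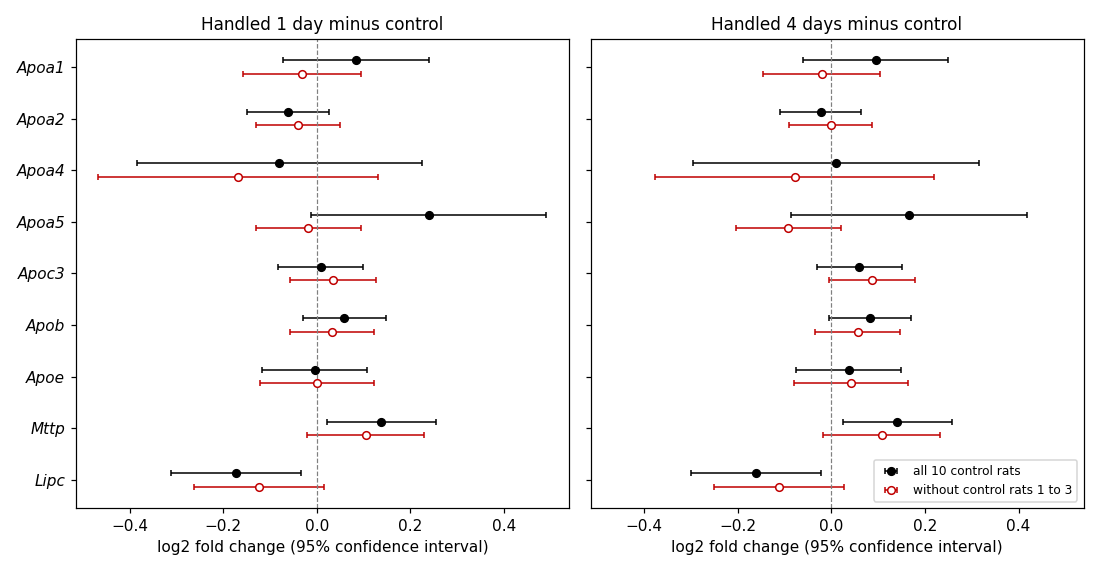
Log2 fold change with its 95% confidence interval (x axis) of the brightest probe set of each gene, after 1 day (left) and 4 days (right) of handling against control, with all 10 control rats (black) and without control rats 1, 2 and 3 (red, open). The intervals of Mttp and Lipc exclude 0 with all control rats and include it without those 3, and the sign turns for Apoa1 and Apoa5 on both days, Apoa4 after 4 days and Apoe after 1 day.

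Set against 1 day of handling, 4 days gave log2 differences of the bright probe sets that ran from -0.07 for Apoa5 (95% confidence interval -0.33 to 0.18) to 0.09 for Apoa4 (-0.22 to 0.39). The difference was 0.003 for Mttp (-0.11 to 0.12) and 0.01 for Lipc (-0.13 to 0.15). The smallest adjusted p over all probe sets was 0.815 in this comparison, with 1551 at an unadjusted p under 0.05.

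The 9 genes varied largely apart from one another from rat to rat. Over the 27 rats without control rats 1, 2 and 3, Pearson's r of the deviations from the group means had a median of 0.11 over the 36 pairs, from -0.36 to 0.88, and was above 0 in 29. Over all 184528 pairs of the 608 bright probe sets the median was -0.006, with 5% below -0.42 and 5% above 0.45. The neighbours Apoa1, Apoc3, Apoa4 and Apoa5 had r from 0.03 to 0.28 among themselves. After adjustment over the 36 pairs, 1 pair passed 0.05, Apoc3 and Apoe, with r = 0.88, Spearman's rho = 0.86 and a permutation p of 1e-05, the smallest that 100000 resamples can give (adjusted p = 0.00036). Without the 2 rats farthest from the median it was 0.86, and within groups r was 0.84 after 1 day, 0.89 after 4 days (10 rats each) and 0.94 in the 7 control rats. Under quantile normalization the r of Apoc3 and Apoe was 0.25 (permutation p = 0.203), and 0 of 36 pairs passed. Apob had r of 0.46 with Apoe, 0.44 with Mttp and 0.44 with Apoc3, none past the adjustment (adjusted p = 0.187 each, permutation test). The correlation of each of the 9 genes with the Gapdh and actin control ratios gave 18 further values, 0 of which passed (smallest adjusted p = 0.196, permutation test). The largest r was 0.43, of Apob with the actin ratio. Group means were subtracted here too, so these values say nothing on the difference in the ratios between handled and control rats.

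**Figure D3:**
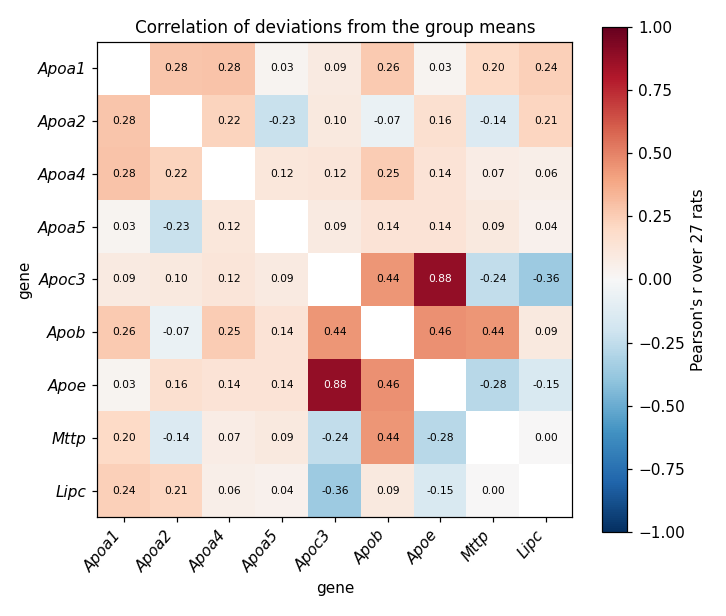
Pearson's r between genes of the log2 deviations from the group means over 27 rats, for each pair of the 9 genes (both axes), with r in each cell and as colour. The cell of Apoc3 and Apoe, 0.88, stands out, and the neighbours of the chromosome 8 cluster have values from 0.03 to 0.28.

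The probe sets whose rat-to-rat pattern was most like that of Apoe were those of Apoh (r = 0.93), Alb (0.92) and Ambp (0.91), which encode plasma proteins of the liver. For Apoc3 they were C3 (0.93), Cyp2c7 (0.91) and Serpina1 (0.90). These partners were all very bright, with mean intensities from 52.2 (Ambp) to 67.0 (Alb), against 62.1 for Apoc3 and 52.4 for Apoe. Whether shared brightness bears on these r values was not tested. For Apoa5 they were Nme6 (0.80), Sar1a (0.75) and Dnajc22 (0.75), for Mttp Sppl2a (0.75) was first, for Lipc Kmt2c (0.75), and for Apob Psmb7 (0.70). Apoa1 was most like Pheta1 (0.84), Apoa2 like Ubald1 (0.71) and Apoa4 like Aldh5a1 (0.69). The Aldh5a1 probe set was dim, with a mean intensity of 0.0466. These likenesses are the highest of all probe sets with 1 symbol over the same 27 rats and are given without a test. They were not repeated under quantile normalization, under which the r of Apoc3 and Apoe was 0.25.

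The other genes of lipoprotein metabolism were measured by 51 of 60 listed symbols (the other 9 were not analysed here), and limma called 0 of 51 in each comparison (background 0.0902%, 0.657% and 0%). The counts by role that follow are at an unadjusted p under 0.05, a mark with a background over all probe sets of 9.33% (1 day) and 11.3% (4 days), and of 8.5% and 11.4% without control rats 1, 2 and 3. Of the 8 other apolipoproteins, 1 passed it after 1 day (0 without the 3 rats) and 0 after 4 days. This was Clu, which encodes clusterin. Clu had 21.8 to 27.2 (median 25.0) after 1 day, 19.3 to 27.8 (median 23.1) after 4 days and 15.6 to 25.8 (median 22.2) in control rats, of which rats 1, 2 and 3 had 15.6 to 19.6. Its log2 fold change was 0.24 (adjusted p = 0.337) and 0.15, against 0.11 and 0.02 without those 3 rats. Apom, a carrier of sphingosine phosphate on high-density lipoprotein, had -0.15 and -0.10, and -0.09 and -0.05 without the 3 rats. Apod, dim on these arrays, had -0.30 and -0.30, and -0.34 and -0.34 without them. The median log2 fold change of the 8 was 0.02 after 1 day and 0.007 after 4 days, and -0.02 and -0.04 without the 3 rats.

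Of 13 genes of assembly and secretion, 2 had an unadjusted p under 0.05 after 1 day (background 9.33%) and 1 after 4 days (background 11.3%), all with lower means after handling. Without control rats 1, 2 and 3 it was 1 after 1 day and 2 after 4 days, 1 of these higher. Dgat2, which makes the triglyceride that is packed, had 10.4 to 15.3 (median 12.7) after 1 day, 12.8 to 17.3 (median 14.6) after 4 days and 12.1 to 24.6 (median 14.7) in control rats. Control rats 1, 2 and 3 had 15.8 to 24.6, and the other 27 rats 10.4 to 17.3. Dgat2 had -0.27 on the log2 scale after 1 day (adjusted p = 0.389) and -0.07 after 4 days, against -0.12 and 0.08 without them. Dgat1, its companion enzyme, had -0.14 and -0.14 (adjusted p = 0.481 and 0.387), and -0.19 and -0.19 without the 3 rats. Mia3, which helps large cargo leave the endoplasmic reticulum, had 0.19 and 0.14, and -0.01 and -0.06 without the 3 rats, which had 5.32 to 5.67 against 7.91 to 11.5 in the other 27.

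Of 7 genes that act on particles in plasma, 1 was higher at an unadjusted p under 0.05 after 1 day (background 9.33%) and 2 after 4 days (background 11.3%), and without control rats 1, 2 and 3 it was 1 and 0. Angptl4, an inhibitor of lipoprotein lipase, had 6.08 to 10.5 (median 8.94) after 1 day, 5.02 to 11.6 (median 7.58) after 4 days and 4.05 to 9.49 (median 5.80) in control rats, with 4.05 to 5.06 in control rats 1, 2 and 3. Its log2 fold change was 0.50 (standard error 0.14, adjusted p = 0.231) and 0.42 (adjusted p = 0.225), and 0.33 and 0.25 without those rats. Lcat, which esterifies cholesterol on high-density lipoprotein, had 28.7 to 35.7 (median 31.8) after 1 day, 30.5 to 36.8 (median 33.3) after 4 days and 24.0 to 33.9 (median 30.6) in control rats, the first 3 of which had 24.0 to 25.4. Lcat gave a log2 difference from control of 0.12 after 1 day and 0.19 after 4 days (adjusted p = 0.225), and 0.02 and 0.08 without the 3 rats. Lpl, lipoprotein lipase itself, had 0.19 and 0.29, and 0.03 and 0.13 without the 3 rats, whose intensities were 0.465 to 0.660.

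Of 11 receptors and transporters, 5 were higher at an unadjusted p under 0.05 after 1 day (background 9.33%) and 3 after 4 days (background 11.3%), and without control rats 1, 2 and 3 it was 2 on each day. Lrp1, a receptor for remnants, had 6.89 to 9.13 (median 7.62) after 1 day, 5.67 to 9.14 (median 7.96) after 4 days and 5.42 to 8.25 (median 6.56) in control rats. Its log2 fold change was 0.27 (standard error 0.09) on both days, with adjusted p-values of 0.289 and 0.199 by limma, and 0.31 on both days without control rats 1, 2 and 3. Sdc1, whose heparan sulphate chains bind remnants, had 0.16 and 0.15 (adjusted p = 0.440 and 0.373), and 0.12 and 0.11 without the 3 rats. Scarb1, the receptor for high-density lipoprotein, had 0.25 and 0.19, and 0.09 and 0.02 without the 3 rats, which had 1.03 to 1.44.

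Of 12 regulators, 1 was higher and 1 lower at an unadjusted p under 0.05 after 1 day (background 9.33%), and 3 were higher after 4 days (background 11.3%). Without those 3 control rats, 1 was higher and 2 lower after 1 day, and 2 were higher and 2 lower after 4 days. Rora, a nuclear receptor of lipid and clock genes, had 0.428 to 0.764 (median 0.685) after 1 day, 0.549 to 0.829 (median 0.671) after 4 days and 0.356 to 0.672 (median 0.493) in control rats. Above the highest control rat, 1 of the first 3, lay 6 of 10 rats after 1 day and 5 of 10 after 4 days, and control rats 4 to 10 had at most 0.601. Rora had log2 fold changes of 0.37 (standard error 0.12, adjusted p = 0.293) and 0.43 (adjusted p = 0.123), and 0.33 and 0.39 without control rats 1, 2 and 3. Foxo1, an insulin-restrained factor that raises Mttp and Apoc3 in the mouse liver, had 0.242 to 0.343 (median 0.284) after 1 day, 0.198 to 0.488 (median 0.402) after 4 days and 0.155 to 0.443 (median 0.238) in control rats, with log2 fold changes of 0.27 and 0.58 (adjusted p = 0.131 after 4 days), and 0.31 and 0.62 without the 3 rats. Hnf4a, a regulator of most apolipoprotein genes in hepatocytes, had 0.05 and 0.20 (adjusted p = 0.235 after 4 days), and -0.01 and 0.14 without the 3 rats.

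**Figure D4:**
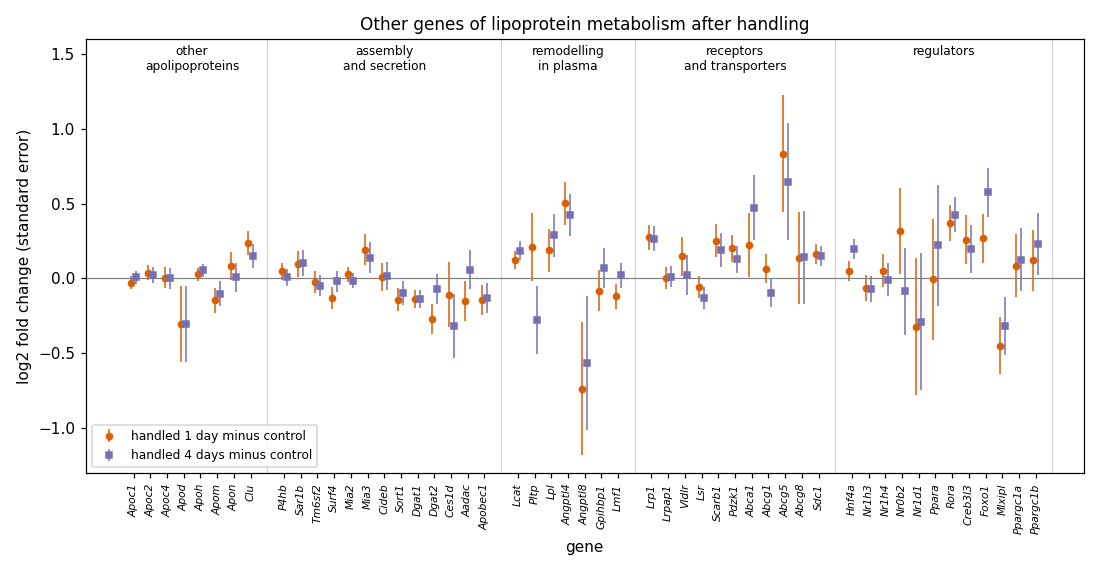
Log2 fold change with its standard error (y axis) of 51 other genes of lipoprotein metabolism (x axis, grouped by role) after 1 day (circles) and 4 days (squares) of handling against control. None was called, and the widest error bars are those of Nr1d1, Angptl8, Ppara and Abcg5.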

How the data were processed

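The authors hybridised liver RNA to Affymetrix Rat Genome 230 2.0 arrays and deposited 1 table of probe set intensities on a linear scale, whose mean is close to 1 on each array. How that scale was set is not given in the sources used here. The authors tested log10 ratios built in Rosetta Resolver, which were not used. The 57 control probe sets of the manufacturer were removed from the 31099 in the table. Of the 31042 tested, 20826 carry 1 gene symbol, 436 several and 9780 none listed. Symbols come from the platform annotation, updated through gene identifiers to RefSeq (GRCr8).

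After a log2 step with no offset, limma 3.58.1 (under R 4.3.3) fitted the 3 groups together with lmFit and eBayes, with two-sided tests adjusted by Benjamini-Hochberg over all 31042 probe sets. A call is an adjusted p under 0.1. The number of arrays limits the precision. The paper states that the rats were group housed. The labels do not say which rats shared a cage or litter, and do not say that replicate numbers pair them. Alternatives were another offset (0.05 or 1), quantile normalization, equal array medians, array weights, an intensity trend, a replicate block, only the groups compared, no dimmest 40% of probe sets, the 3′ over 5′ Gapdh control log2 ratio as a covariate, the methods' t-test, an exact rank-sum test, other thresholds, no control rats 1, 2 and 3, and each rat left out in turn. Correlations used 100000 permutations. Scripts were tested on simulated data. Plots come from matplotlib 3.10.9 (Python 3.11.15).

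The genes, gene lists and markers were chosen with earlier results of these data known. The text names the 9 genes, and for each role of the other 60 listed the called genes and the 3 with the smallest p against control. Where a gene has several probe sets, the one with the highest mean stands for it in lists, correlations and figures.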

Additional observations from a re-analysis of the deposited data

Results flagged for a closer look

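Each of the 11 probe sets in each of the 3 groups gave 1 set of 10 values, 33 sets in all. In 3 of these, 1 rat lay farther from its neighbour than Dixon's critical value of 0.466 of the set's range allows. Chance gives such a gap in about 1 in 20 sets, but these sets share the same rats and are not independent. In control rats, control rat 1 had a Lipc intensity of 23.5, and the gap to the next rat was 0.487 of the range. Among rats handled for 4 days, rat 2 had 0.104 in the dim Apob probe set (gap 0.686 of the range) and rat 7 had 0.0377 in the dim Apoe probe set (gap 0.512 of the range).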

How the results depend on the processing

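The number of the 11 probe sets called was 0 in each comparison under all 43 settings. Of 426 log2 fold changes under 13 alternatives, 411 kept their sign, as did 953 of 990 with 1 rat left out. These counts overstate stability, because many of the values could not turn. The t-test, the rank-sum test and the intensity trend leave the difference of group means unchanged. So do the replicate block, only the groups compared, no dimmest probe sets, and leaving out a rat of a group not compared. The 15 that turned under alternatives came from the settings named next. Without control rats 1, 2 and 3, the sign turned for Apoa1 (-0.0313 after 1 day, -0.0210 after 4 days), Apoa4 (-0.0788 after 4 days), Apoa5 (-0.0180 after 1 day, -0.0920 after 4 days) and the bright Apoe probe set (0.000184 after 1 day). With array weights it turned for Apoa1 (-0.00284, 4 days against 1 day), Apoa4 (-0.00981 after 4 days) and Apoe (0.000128 after 1 day). With quantile normalization it turned for Apoc3 (-0.00981 after 1 day) and Mttp (-0.000809, 4 days against 1 day). With the Gapdh ratio as a covariate it turned for Apoc3 (-0.00943 after 1 day), the bright Apoe (-0.00445) and dim Apoe probe sets (0.0449, both after 4 days) and Mttp (-0.00525, 4 days against 1 day). Leaving out single rats, the sign turned for Apoa4 after 4 days (-0.0899 to 0.0747), Apoc3 after 1 day (-0.00533 to 0.0260), the bright (-0.0254 to 0.00910) and dim (-0.0820 to 0.124) Apoe probe sets after 1 day, and, for 4 days against 1 day, Apoa1 (-0.0151 to 0.0268), Mttp (-0.0181 to 0.0192) and Lipc (-0.0173 to 0.0414). The cause was not tested.

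Of the 51 pathway genes, 2 were called after 4 days with an offset of 0.05, with an intensity trend and without the dimmest 40% of probe sets (Rora and Foxo1), and 3 with an offset of 1 (Lcat, Rora and Foxo1), in place of 0. Under quantile normalization 0 of the 36 pairs of genes passed in place of 1, an alternative chosen after seeing the data. Over all probe sets, the calls ranged from 0 with the Gapdh ratio to 144 at an unadjusted p under 0.001 after 1 day. After 4 days they ranged from 5, also with the Gapdh ratio, to 490, against 28 and 204 in the main fit. Leaving out single rats gave 1 (without handled 1 day rat 2) to 44 after 1 day and 86 (without control rat 3) to 307 (without control rat 7) after 4 days. Same-numbered rats deviated together with r from -0.038 to 0.118 and 1 of 30 pairs over 0.1. Whether they shared a cage or a processing step is not given by the labels and was not tested. The fit with a replicate block called 0 of 11 probe sets in each comparison. Dim probe sets, such as the second of Apoe, limit what these arrays can show.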
